A study of Homo sapiens with 6 samples.

Results

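The nuclear-encoded subunits of the respiratory chain and ATP synthase were followed in SK-N-AS cells after knockdown of Prp19, a pre-mRNA splicing factor encoded by PRPF19. Members were chosen by gene symbol, with earlier results of these data known. They were the protein-coding genes named NDUFA, NDUFB, NDUFC, NDUFS or NDUFV with a digit, NDUFAB1, SDHA to SDHD, CYC1, CYCS, and every symbol that starts with UQCR, COX4 to COX8 or ATP5. NDUFAF assembly factors were left out. This gave 92 of the 58735 genes in the tables, of which 38 belonged to complex I, 4 to complex II, 10 to complex III, 19 to complex IV and 20 to complex V, with CYCS (cytochrome c) as the remaining member. NDUFA4 and its relative NDUFA4L2 were placed in complex IV, since NDUFA4 is now regarded as a subunit of that complex.

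SK-N-AS is an established human neuroblastoma cell line. A negative control siRNA (NC) was transfected in 3 libraries and an siRNA against Prp19 (siPrp19) in the other 3, and the labels give 72 h between transfection and RNA collection (a shorter time is stated in the study's methods). Both groups were the same unmodified line exposed to the same transfection reagent, with 1 siRNA sequence standing for the knockdown. Each library was measured by RNA sequencing and given as FPKM, a count of fragments divided by exon length and library size. The length covers all annotated exons of a gene, used or not, so levels compare only roughly between genes. Libraries are called here by the name of their value column, NCa to NCc (replicates 1 to 3) and siPrp19a to siPrp19c. In GEO, 4 of the 6 tables are recorded under a sample with another description than their column, and 2 of them, NCb and siPrp19b, under the opposite group.

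The respiratory chain is a set of protein complexes in the inner mitochondrial membrane. Complex I takes electrons from NADH and complex II takes them from succinate, ubiquinone carries them to complex III, cytochrome c carries them on to complex IV, where oxygen is reduced, and complex V uses the proton gradient to make ATP. Most subunits are encoded in the nucleus and imported, and a small core of complexes I, III, IV and V is encoded in mitochondrial DNA (mtDNA). Complex II has no mtDNA-encoded subunit and is also an enzyme of the citrate cycle, and inherited loss of its subunits predisposes to paraganglioma, a tumour that arises from neural crest cells, as neuroblastoma does.

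PRPF19 was measured at 83.0, 83.1 and 93.0 FPKM in NCa, NCb and NCc and at 19.6, 19.1 and 18.5 FPKM in siPrp19a, siPrp19b and siPrp19c. The levels separated by column name without overlap. Grouped as recorded in GEO, each group would hold high and low PRPF19 libraries, because NCb and siPrp19b are recorded under the opposite group. PRPF19 levels thus follow the column names and not the recorded groups. By column name the log2 fold change was -2.12 ± 0.07 (SE, n = 3 against 3), with an adjusted p of 0.000215 in limma. An exact permutation test (two-sided) could not go below p = 0.1 with 3 against 3 libraries, and it reached that value. The whole reads recovered from the FPKM values summed to between 14887132 and 19977811 per library. Across all genes, NCa and NCb differed by a chi-square of 1.74 per gene and siPrp19b and siPrp19c by 2.82, whereas the other pairs of libraries differed by 21.0 to 55.2, the last between NCc and siPrp19a. These 2 close pairs differed by more than counting noise and were kept as separate libraries, and NCc and siPrp19a stood apart from the partners of their own groups. The share of reads from the mitochondrial genome was 8.29% in siPrp19a and between 5.15% and 5.49% in the other libraries.

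Markers of the cell type were also read. Of the 5 adrenergic neuroblastoma markers reported, which are a part of the list, 4 passed the filter, and all 4 had a negative log2 fold change (median -0.28). TH, the enzyme that defines catecholamine synthesis, was below the filter at 0.312 to 0.662 FPKM. All 5 mesenchymal neuroblastoma markers passed the filter, and 2 were called lower, against 5.37% of all tested genes. The 2 were WWTR1 and YAP1, the gene that the study proposes as a target of Prp19. VIM, FN1 and PRRX1 were not called (adjusted p = 0.129, 0.781 and 0.885 in limma). Among markers of other cells, EPCAM, CDH1 and PECAM1 stayed at or below 0.982 FPKM, whereas PTPRC, a leukocyte surface phosphatase, was at 24.9 to 30.7 FPKM in NC and 16.9 to 20.4 FPKM in siPrp19 (adjusted p = 0.0202). The summed level of the 5 reported adrenergic markers was 224 to 241 FPKM in NC and 176 to 195 FPKM in siPrp19, that of the mesenchymal list was 195 to 220 and 146 to 171 FPKM, and that of the 4 markers of other cells was 25.8 to 31.6 and 17.5 to 21.4 FPKM. The part of these markers in the results below was not tested.

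The first question was whether knockdown of Prp19 changed the level of the subunit genes. Of the 92 genes, 81 had a mean of at least 1 FPKM and were tested, 3 had no read in any library (COX6A2, COX7B2 and the read-through gene NDUFC2-KCTD14) and 8 lay between 0 and the filter (NDUFV2, COX4I2, COX6B2, COX7A1, COX8C, NDUFA4L2, ATP5MGL and the read-through gene ATP5MF-PTCD1). SDHD, which encodes a membrane anchor of complex II, was lower in siPrp19, and it was the only tested subunit gene past an adjusted p of 0.05 when all 6 libraries were compared. No subunit gene was called higher, against 2.57% of all 13718 tested genes called higher and 5.37% called lower (7.94% in all, or 1089 genes). At an unadjusted p below 0.05 there were 6 subunit genes. The median log2 fold change (siPrp19 minus NC) over the subunit genes was -0.05, with 29 positive and 52 negative, and that over all tested genes was -0.02. This balance of signs depended on normalization. Positive fits numbered 39 with the same FPKM sum in each library and 51 with quantile normalization. In RNA from a whole culture, a lower level in every cell cannot be told apart from a loss in some cells.

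The precision of these fits limits what the missing calls mean. The 95% interval of a subunit gene extended by 0.338 on the log2 scale to either side in the median. For 63 of the 81 genes this interval excluded a change of 1.5-fold in either direction, and for the remaining genes it did not. Fitted values beyond 1.5-fold were found for 2 genes, SDHD and COX6A1. These intervals count the libraries of the close pairs as independent. With each close pair averaged, the SE of ATP5F1B, for example, was 0.196 against 0.106 over 6 libraries. The count of 63 was not repeated with averaged pairs. Exon bases are shared with another annotated gene in 49 of the 92 members, and 51 have pseudogenes in the table (231 in all), so some reads could be assigned to either copy.

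**Figure D1:**
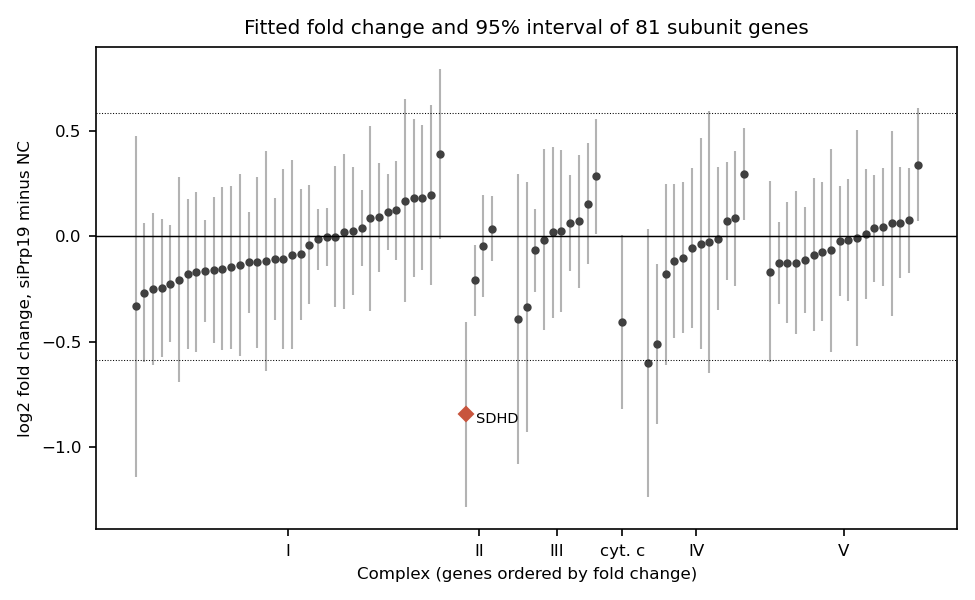
Fitted log2 fold change (siPrp19 minus NC, on log2(FPKM + 1)) of the 81 tested subunit genes, grouped by complex and ordered by value within each. Bars are 95% intervals from limma, dotted lines mark 1.5-fold in either direction, and the diamond is SDHD at -0.84, the only gene past an adjusted p of 0.05.

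SDHD was at 13.4, 12.7 and 16.2 FPKM in the NC libraries (14.1 ± 1.84, SD) and at 5.24, 8.97 and 8.39 FPKM in the siPrp19 libraries (7.53 ± 2.00). Every siPrp19 library was below every NC library, and siPrp19a was the lowest by a wide margin. SDHD fell by 46.5% in mean FPKM. Its fitted difference on the log2 scale was -0.84 ± 0.19 (SE), with a 95% interval of -1.28 to -0.40 and an adjusted p of 0.0403. Between 235 and 789 reads per library lay behind these values. The call was close to the threshold. It held under 10 of 20 other settings and was lost under 10, with adjusted p between 0.00439 and 1.00, whereas the fold change was negative under all 20, from -1.04 to -0.54. With NCc and siPrp19a both left out, it was -0.54 with an adjusted p of 0.00439. That p-value measures only the spread within the 2 close pairs, and 28% of all tested genes were called in that fit. With each close pair averaged to 1 library, the fold change of SDHD was -0.998 and was not called (adjusted p = 0.166 in limma). With the 2 libraries of contradictory labels left out it was -1.04 with an adjusted p of 0.152. With the tables grouped as recorded in GEO, which mixes high and low PRPF19 libraries in each group, it was -0.54 with an adjusted p of 1.00.

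SDHD lies on chromosome 11 (chr11:112086773-112120013, plus strand, GENCODE 29 on GRCh38), head to head with TIMM8B, a small protein of the mitochondrial intermembrane space, and the 2 genes overlap by 26 bases at their starts. In all, 12.2% of the exon bases of SDHD are shared with other annotated genes. Most of this, 11.2%, is shared with an unnamed gene on the same strand that had no read in any library. The counting was not stated to use strand. TIMM8B, named here after the values were seen because of this position, was at 18.5, 17.0 and 25.7 FPKM in NC and at 16.9, 17.3 and 20.2 FPKM in siPrp19. Its fit was -0.14 on the log2 scale (adjusted p = 0.628), so the fall called for SDHD was not called for the gene next to it, and the difference between the genes was not tested. The processed pseudogene SDHDP6 was at 1.32 to 2.90 FPKM.

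The other subunits of complex II gave the reference for SDHD within the same enzyme. SDHA, the flavoprotein that oxidises succinate, was at 11.1, 11.6 and 12.4 FPKM in NC and at 9.61, 10.5 and 9.81 FPKM in siPrp19. The groups did not overlap, but the fit of -0.21 ± 0.07 on the log2 scale did not pass (adjusted p = 0.126). SDHA has 3 expressed pseudogenes, SDHAP1, SDHAP3 and SDHAP4, at 4.51 to 9.71 FPKM, so part of its reads may be assigned to or from these copies. SDHB, the iron-sulphur subunit, was at 27.0, 26.2 and 33.1 FPKM in NC and at 29.5, 26.6 and 27.0 FPKM in siPrp19, with a fitted difference of -0.05 on the log2 scale (adjusted p = 0.831) that was negative under 13 of 20 other settings. SDHC, the second membrane anchor and the partner of SDHD in the membrane, lay between 12.8 and 14.1 FPKM in all 6 libraries. Its log2 fold change was 0.04, with a 95% interval of -0.12 to 0.19 (adjusted p = 0.793), and was negative only with the tables grouped as recorded in GEO. The anchors thus stood at 13.3 ± 0.672 (SDHC) and 14.1 ± 1.84 FPKM (SDHD) in NC and at 13.7 ± 0.342 and 7.53 ± 2.00 FPKM in siPrp19. The annotated exons behind these values span 14160 bases for SDHC and 2838 for SDHD, with 2866 and 601 reads in NCa. The FPKM values therefore do not show which anchor had more RNA.

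Promoter letters of the complex II genes are shown because SDHA, SDHB and SDHD carry matches to motifs of factors known for respiratory genes. The sequences came from the RefSeq promoter table for GRCh38.p14, which holds 250 bases before and 50 after each start, had entries for 72 of the 92 genes, and did not include SDHC. Each window below has 30 bases, 5′ to 3′ on the strand of the gene, and capitals mark the matched letters. Windows were taken only from matches within the 250 bases before the start, whereas the shares given below also cover the 50 bases after it. Searched on either strand were the NRF1 palindrome (the capitals of the first SDHD window without their leading T) and a longer NRF1 form with that T and an open base in place of its seventh letter. The SP1 box (GGGCGG), the ETS letters bound by factors such as GABP (CCGGAAG) and the YY1 letters (AAGATGGCG) were searched as well. A match to the palindrome can also be a match to the longer form. Positions are counted from the RefSeq start, which for SDHA, SDHB and SDHD lies downstream of the GENCODE 29 start. Some windows therefore lie within the gene as annotated in GENCODE 29, among them the second SDHD window.
SDHA (chr5:218144-218173, plus): ggtccgcttTGCGCAGGCGCggcgccccca
SDHA (chr5:218193-218222, plus): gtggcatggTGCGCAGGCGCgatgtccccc
SDHA (chr5:218242-218271, plus): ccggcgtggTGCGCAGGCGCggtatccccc
SDHA (chr5:218290-218319, plus): cccggtgtggTGCGCAGGCGCagtctgcgc
SDHB (chr1:17054150-17054179, minus): cctCCGCCCacccgggaaaCCGGAAGccgc
SDHD (chr11:112086753-112086782, plus): agctgtgttTGCGCATGCGCgacgggtgtg
SDHD (chr11:112086785-112086814, plus): ccgcctctcgaCTTCCGGttcacccagcat

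SDHA held 4 copies of the longer NRF1 form, the first beginning 167 bases and the last 20 bases before the start. SDHD held the palindrome beginning 110 bases before the start, and the ETS letters on the other strand 77 bases before it. The SP1 and ETS letters of SDHB began within the 144 bases before its start. SDHB also matched the YY1 letters, but not wholly before the start, so that match is not shown. Over all subunit genes with an entry, the palindrome was found in 4 of 72 promoters (5.56%, against 2.44% of the promoters of tested genes and 1.36% of all 27305). The longer NRF1 form was found in 10 (13.9%, against 5.86% and 2.94%), CCGGAAG in 20 (27.8%, against 20.5% and 10.7%), and AAGATGGCG in 8 (11.1%, against 4.18% and 1.85%). GGGCGG was found in 43 (59.7%, against 71.2% and 44.6%). These are matches of letters and do not show that a factor was bound.

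Complex I was represented by 36 tested genes of 38. Their levels ran from 1.21 FPKM for NDUFA7 to 354 FPKM for NDUFS5, an accessory subunit, in the mean of the 6 libraries. None was called in either direction, and the median log2 fold change was -0.10, with 12 positive and 24 negative. NDUFS5 was at 314, 306 and 442 FPKM in NC and at 350, 346 and 366 FPKM in siPrp19, so NCc was the outlying library and the group means were alike at 354 ± 76.7 and 354 ± 10.5 FPKM. The fitted range ran from -0.33 for NDUFA1 to 0.39 for NDUFA7, both small accessory subunits. NDUFA1 was at 42.7, 41.0 and 58.4 FPKM in NC and at 20.4, 46.6 and 52.7 FPKM in siPrp19, where the low mean came from siPrp19a alone. Its adjusted p was 0.615, and its fit was 0.24 without NCc and siPrp19a. NDUFA7 was at 1.16, 0.528 and 1.07 FPKM in NC and at 1.30, 1.84 and 1.35 FPKM in siPrp19, on only 11 to 43 reads, and 33.5% of its exon bases are shared with other genes including RPS28 (adjusted p = 0.226). It was -0.21 with the tables as recorded in GEO. NDUFV2, a core subunit of the NADH-oxidising arm, was below the filter at 0.827 to 1.14 FPKM, while its pseudogene NDUFV2P1 was at 1.40 to 2.56 FPKM, so its level is uncertain.

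Complex III and cytochrome c showed the same spread between libraries. All 10 complex III genes were tested, none was called, and their median log2 fold change was 0.02. UQCRH, the hinge protein that binds cytochrome c1, was the most abundant, at 212, 204 and 278 FPKM in NC and at 122, 216 and 226 FPKM in siPrp19. Its intronless copy UQCRHL was likewise highest in NCc and lowest in siPrp19a, at 5.74, 7.37 and 8.64 FPKM against 2.93, 5.98 and 7.80 FPKM, and gave the lowest fit of the complex at -0.39 (adjusted p = 0.472), which was 0.06 without NCc and siPrp19a. Reads of these near-identical genes may be exchanged. UQCR11 gave the highest fit of the complex, at 8.81, 9.39 and 12.2 FPKM in NC against 12.0, 12.9 and 12.4 FPKM in siPrp19 (log2 fold change 0.28 ± 0.12, adjusted p = 0.198). CYC1, which encodes cytochrome c1, was at 60.5, 65.5 and 77.6 FPKM in NC and at 60.5, 77.8 and 75.8 FPKM in siPrp19. CYCS, the soluble carrier that is also released in apoptosis, was at 45.6, 46.7 and 59.0 FPKM in NC and at 28.9, 42.9 and 42.7 FPKM in siPrp19. The CYCS groups did not overlap, and the fit was -0.41 ± 0.17 on the log2 scale (adjusted p = 0.219), which became -0.11 without NCc and siPrp19a (adjusted p = 0.0633).

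**Figure D2:**
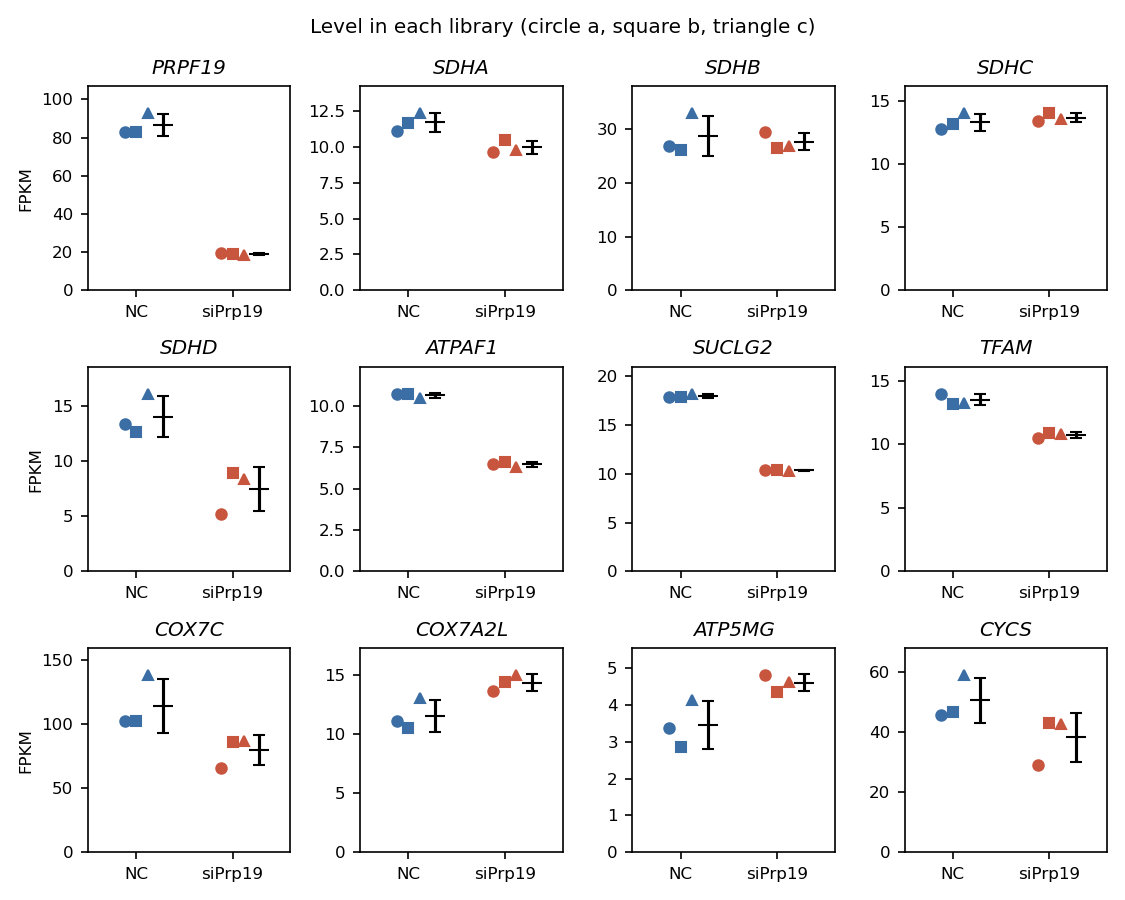
FPKM of 12 genes in each library, with NC in blue and siPrp19 in red (circle for library a, square for b, triangle for c) and the group mean ± SD (n = 3) in black. PRPF19, SDHD, ATPAF1, SUCLG2 and TFAM passed an adjusted p of 0.05, whereas SDHA, SDHB, SDHC, COX7C, COX7A2L, ATP5MG and CYCS did not.

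Complex IV had 12 tested genes of 19, because most of its tissue-restricted isoforms were hardly expressed. COX4I1, the common form of subunit 4, was at 30.9 to 45.5 FPKM, and its lung form COX4I2 at 0 to 0.196 FPKM with at most 2 reads. COX6B1 was at 81.5 to 143 FPKM and its testis form COX6B2 at 0.0828 to 0.424 FPKM. COX7A2 was at 54.7 to 74.6 FPKM and its muscle form COX7A1 at 0.472 to 1.27 FPKM. COX8A was at 88.9 to 172 FPKM and COX8C at 0 to 0.715 FPKM. COX6A2 (muscle) and COX7B2 (testis) had no read in any library, which allows up to 0.376 and 0.252 FPKM, the level of 3 reads in the shallowest library. NDUFA4 was at 42.9 to 60.0 FPKM and NDUFA4L2 at 0.435 to 1.05 FPKM. The ubiquitous form was thus the higher in every library for each of these pairs.

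None of the 12 complex IV genes was called, and their median log2 fold change was -0.05. COX6A1, the common form of subunit 6A, was at 40.4, 37.0 and 50.9 FPKM in NC and at 17.4, 33.9 and 35.4 FPKM in siPrp19. Its fit of -0.60 ± 0.27 was the lowest of the complex (adjusted p = 0.233) and became -0.15 without NCc and siPrp19a (adjusted p = 0.0906). Its pseudogene COX6A1P2 was at 15.7 to 28.9 FPKM, so that reads could be split between the copies. COX7C, named after its values were seen because its groups did not overlap, was at 102, 102 and 139 FPKM in NC and at 66.2, 86.0 and 87.0 FPKM in siPrp19. On the log2 scale the fit was -0.51 ± 0.16 (adjusted p = 0.107), and without NCc and siPrp19a it was -0.24 (adjusted p = 0.00557). COX7C was called under only 1 of 20 other settings, this one, where the p-value measures only the spread within the close pairs. COX7A2L, which joins complexes III and IV into supercomplexes, was at 11.1, 10.5 and 13.1 FPKM in NC and at 13.6, 14.4 and 15.0 FPKM in siPrp19. All siPrp19 values lay above all NC values, and the fit was 0.29 ± 0.09 with an adjusted p of 0.105 over 6 libraries and of 0.0281 without NCc. COX7A2L was called under 5 of 20 other settings and not under 15, and its adjusted p was 0.546 with each close pair averaged.

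Complex V had 18 tested genes of 20, with a median log2 fold change of -0.02 and no call. ATP5F1B, the catalytic beta subunit, was at 278, 279 and 319 FPKM in NC and at 245, 282 and 282 FPKM in siPrp19. The 3 genes of the c ring, ATP5MC1, ATP5MC2 and ATP5MC3, encode the same mature protein and were at 27.0 to 36.1, 36.4 to 48.1 and 17.9 to 26.5 FPKM, with overlapping groups for each. ATP5IF1, the inhibitor of ATP hydrolysis, was at 27.3, 26.5 and 40.0 FPKM in NC and at 22.6, 33.3 and 33.2 FPKM in siPrp19. The lowest fit was -0.17 for ATP5MF (adjusted p = 0.628), which was 0.15 without NCc and siPrp19a. The highest fit was that of ATP5MG, subunit g of the membrane part, at 3.38, 2.85 and 4.13 FPKM in NC and at 4.81, 4.35 and 4.60 FPKM in siPrp19. Its groups did not overlap, and on the log2 scale it was 0.34 ± 0.11, with adjusted p = 0.127 over 6 libraries and 0.0354 without NCc. ATP5MG was called under 5 of 20 other settings and not under 15, and its adjusted p was 0.481 with each close pair averaged.

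Across the complexes, the siPrp19 values lay above all NC values for 4 subunit genes (NDUFA7, NDUFA9, COX7A2L and ATP5MG), against 13.2% of all tested genes. They lay below all NC values for 5 (SDHA, SDHD, CYCS, COX6A1 and COX7C), against 18.1%. Separation of the groups was therefore less frequent among the 81 subunit genes than the background share in both directions, and no test of that difference was made.

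The subunit genes varied together between libraries. NCc had the highest level of the 6 libraries for 66 of the 81 genes (81.5%), against 28.6% of all tested genes. siPrp19a had the lowest level for 44 (54.3%), against 24.7%. In log2(FPKM + 1) relative to the mean of the 6 libraries, the median subunit gene was at -0.08 in NCa, -0.11 in NCb and 0.30 in NCc, and at -0.17 in siPrp19a, 0.04 in siPrp19b and 0.06 in siPrp19c. The same median over all tested genes lay between -0.01 and 0.02. High and low libraries were thus found in both groups, and each group held 1 library that departed from its partners. The pattern was not confined to the subunits. The median of 47 tested assembly factors, listed below, was 0.18 in NCc and -0.11 in siPrp19a. For the citrate cycle genes it was 0.08 and -0.01, and for the regulators 0.08 and 0.04.

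**Figure D3:**
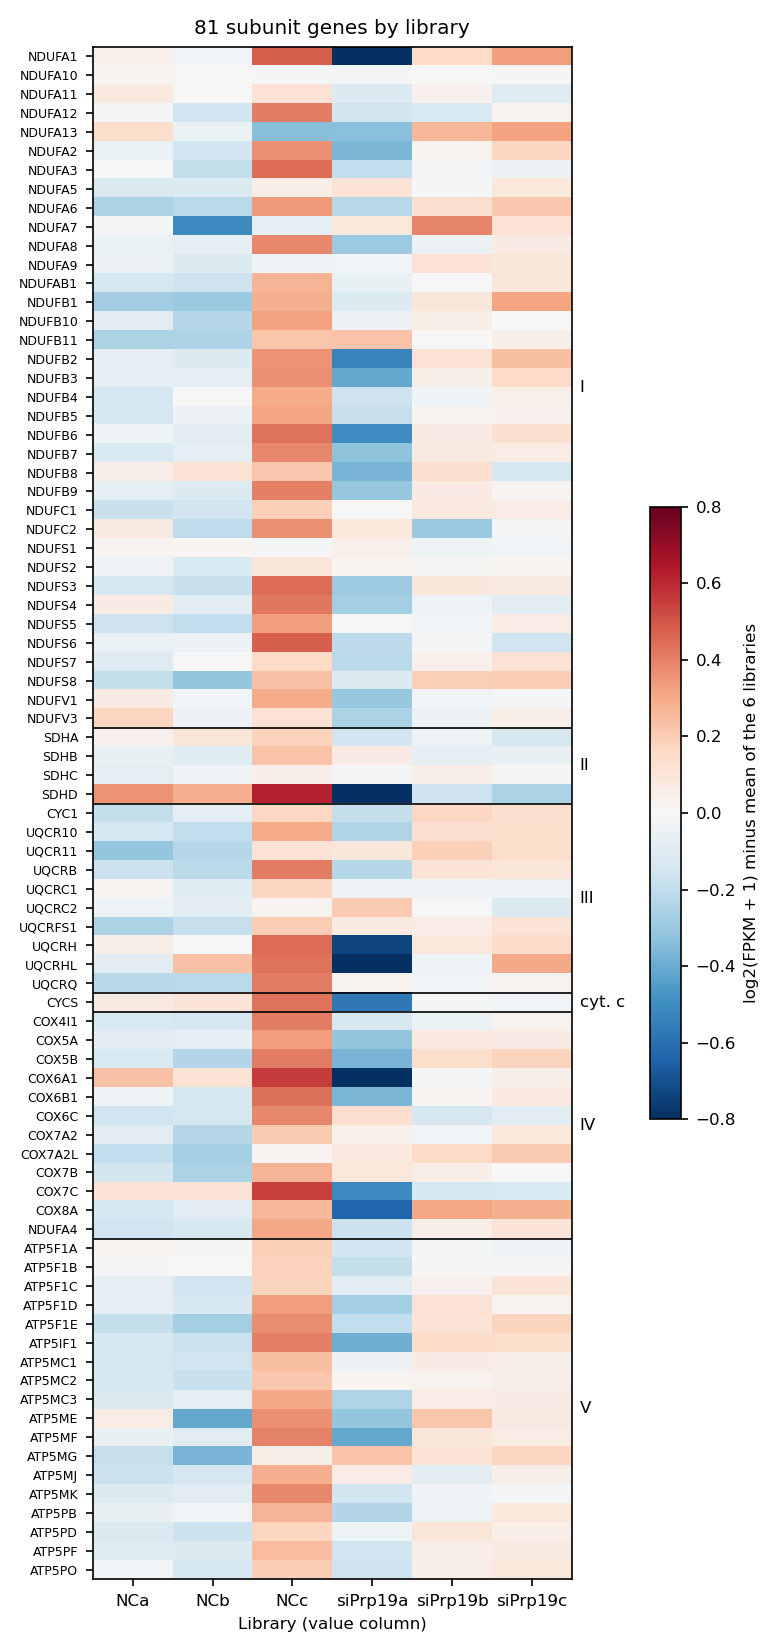
Level of each of the 81 tested subunit genes in each library, as log2(FPKM + 1) minus the mean of the 6 libraries, with colours limited to 0.8 in either direction. NCc is the highest library for 66 genes and siPrp19a the lowest for 44, while SDHD is above its mean in the 3 NC libraries and below it in the 3 siPrp19 libraries.

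Direct differences between libraries showed the same. NCc was above NCa for 76 of 81 subunit genes, with a median difference of 0.41 in log2(FPKM + 1), against 0.02 and 52.4% of genes over the whole table. siPrp19a was above siPrp19b for only 16 of 81, with a median of -0.20. Within the close pairs the medians were -0.04 (NCb minus NCa) and 0.02 (siPrp19c minus siPrp19b), and 69 of 81 genes lay within 1.1-fold in each pair. Among the complexes, the median for NCc ranged from 0.20 in complex II to 0.36 in complex IV, and that for siPrp19a from -0.08 in complex II to -0.24 in complex IV.

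**Figure D4:**
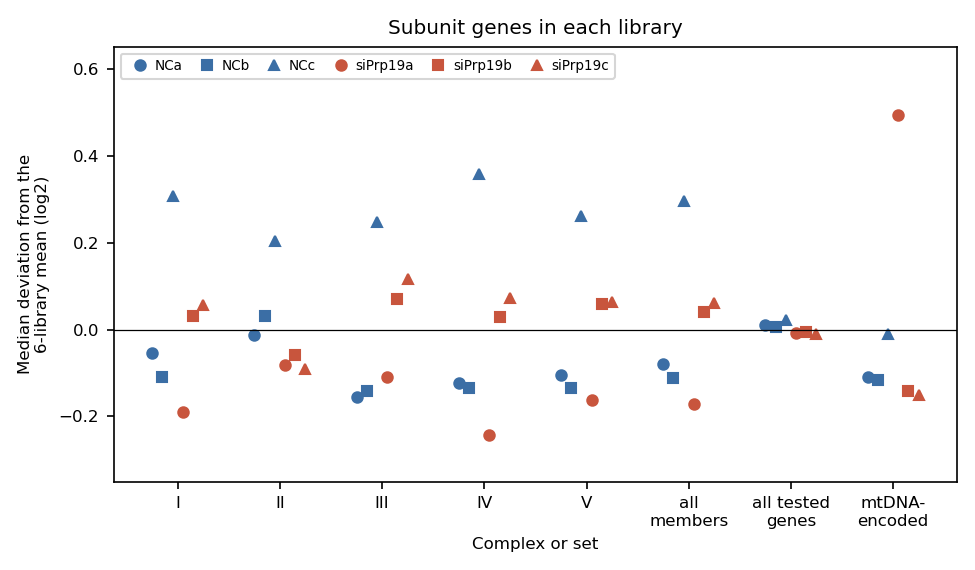
Median deviation of each complex, of all 81 subunit genes, of all 13718 tested genes and of the 13 mtDNA-encoded subunits in each library, on the log2(FPKM + 1) scale relative to the mean of the 6 libraries. NCc (blue triangle) lies at 0.30 and siPrp19a (red circle) at -0.17 for all subunit genes, and siPrp19a lies at 0.49 for the mtDNA-encoded subunits.

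Subunit genes were shorter than the background, with a median exon length of 2462 bases against 4323.5, and similar in GC content at 47.6% against 48.1%. After each library was corrected for GC content and length, the median subunit gene was at 0.22 in NCc and at -0.13 in siPrp19a, so most of the deviation was still present. The mtDNA-encoded subunits did not follow the nuclear ones. They were highest in siPrp19a for 12 of 13 genes, with a median of 0.49 there and between -0.15 and -0.01 in the other libraries. MT-CO1, the catalytic subunit of complex IV, was at 8546, 8423 and 8976 FPKM in NC and at 13932, 8366 and 8166 FPKM in siPrp19. None of the 13 was called, and their median log2 fold change was 0.18. In the median, siPrp19a thus held the highest mtDNA-encoded and the lowest nuclear-encoded levels. Its share of mitochondrial reads, the highest of the libraries, includes the reads of these 13 genes and is not a separate observation.

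The comparison was repeated without NCc and siPrp19a, a choice made after the data were seen. NCa and NCb were then compared with siPrp19b and siPrp19c, which are the 2 close pairs, so that the p-values measure only the very small spread within those pairs. Of the 81 subunit genes, 33 were called higher and 2 lower (SDHD and COX7C), against 11.6% of all tested genes called higher and 16.5% called lower (28% in all). The median log2 fold change became 0.16, with 66 of 81 positive. The genes called higher were 11 of 36 in complex I, 6 of 10 in complex III, 6 of 12 in complex IV and 10 of 18 in complex V, with none in complex II or for CYCS. COX8A, for example, was at 125 and 131 FPKM in NCa and NCb and at 172 and 168 FPKM in siPrp19b and siPrp19c (log2 fold change 0.41, adjusted p = 0.00289). ATP5IF1 rose by 0.30 (adjusted p = 0.00592) and NDUFA4 by 0.22 (adjusted p = 0.0135) on the same scale.

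This shift was not seen over 6 libraries and depended on how the libraries were counted. Leaving out NCc alone gave 4 subunit genes called higher (ATP5MG, COX7A2L, UQCR11 and UQCRFS1) and none lower, against 3.34% and 6.53% of all tested genes (9.87% in all). When each close pair was averaged to 1 library, as it would be if its members were not independent, 2 genes of the whole table were called (0.0146%) and no subunit gene, and the median over the subunit genes was -0.17, with 19 of 81 positive. A difference of groups and a difference of the pairs of libraries cannot be told apart in these data.

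**Figure D5:**
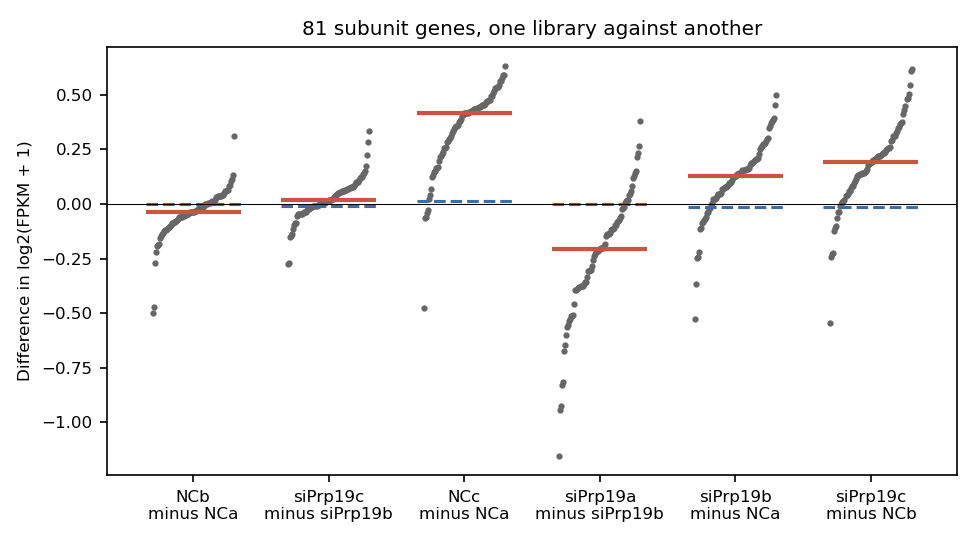
Difference in log2(FPKM + 1) between pairs of libraries for the 81 subunit genes (points in order of value), with the median of the subunit genes in red and that of all 13718 tested genes as a dashed blue line. The 2 close pairs have medians of -0.04 and 0.02, NCc lies 0.41 above NCa, siPrp19a lies 0.20 below siPrp19b, and siPrp19b and siPrp19c lie 0.13 and 0.19 above NCa and NCb.

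Other genes of the same organelle were counted from lists of assembly factors, citrate cycle enzymes and regulators. For the counts below, the shares over all tested genes were 2.57% called higher and 5.37% called lower. Of 47 tested assembly factors of 49, none was called higher and 1 lower, with a median log2 fold change of -0.06. That gene was ATPAF1, the chaperone of the ATP synthase beta subunit, at 10.7, 10.7 and 10.4 FPKM in NC and at 6.49, 6.60 and 6.30 FPKM in siPrp19. It fell by 0.64 on the log2 scale (SE 0.06, adjusted p = 0.00306), and the 3 values within each group were close.

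Of the 14 citrate cycle genes, all were tested, none was called higher and 2 were called lower, with a median of -0.03. SUCLG2, the GTP-specific subunit of succinyl-CoA ligase, which makes the succinate that complex II oxidises, was at 17.9, 17.8 and 18.2 FPKM in NC and at 10.4, 10.4 and 10.3 FPKM in siPrp19 (log2 fold change -0.74 ± 0.06, adjusted p = 0.00201). IDH3G, a regulatory subunit of isocitrate dehydrogenase, was at 10.1, 9.96 and 11.1 FPKM in NC and at 7.20, 7.40 and 7.43 FPKM in siPrp19 (-0.45 ± 0.07, adjusted p = 0.0123). The calls of ATPAF1 and SUCLG2 each held under 17 of 20 other settings, and that of IDH3G under 14.

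Of 11 tested regulators of 13, TFAM, which packages and transcribes mtDNA, was called lower and none higher. TFAM was at 14.0, 13.2 and 13.3 FPKM in NC and at 10.5, 10.9 and 10.8 FPKM in siPrp19, a log2 fold change of -0.31 ± 0.06 (adjusted p = 0.0283) that was no longer called under 14 of 20 other settings. NRF1, the factor of the palindrome shown for SDHD, was at 5.34, 5.38 and 6.44 FPKM in NC and at 4.80, 4.88 and 5.44 FPKM in siPrp19 and was not called (adjusted p = 0.366). PPARGC1A, the coactivator of mitochondrial biogenesis, was below 0.1 FPKM in every library.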

How the data were processed

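RNA was extracted with TRIzol, and the NEBNext Ultra RNA kit was used, without a statement on strand. Per the submitters' processing notes, HISAT2 2.0.5, featureCounts 1.5.0-p3 and hg38 were used, and the authors deposited 1 FPKM value per gene and library; their own tests with DESeq2 were not used here. All value columns were matched to samples by name. Biological replicates were stated in the study. Whole reads were recovered from FPKM and GENCODE 29 exon lengths for 100% of values above 0 (tolerance 0.05 reads), with totals 0.951 to 1.04 times those the FPKM scale implies.

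Genes with a mean of at least 1 FPKM were tested on log2(FPKM + 1) with limma 3.58.1 (R 4.3.3, mean-variance trend, two-sided, Benjamini-Hochberg over 13718 genes, threshold 0.05), which understates changes of low genes. The fit was tested on simulated data with independent libraries and large changes. The simulation held no close pairs, so it does not show how the fit behaves with them or with small changes. Alternatives were other groupings, normalizations, filters, pseudocounts, corrections, a replicate block and left-out libraries. Named genes were PRPF19, called members, the highest, most raised and most lowered member of each complex, complex II, cytochromes, isoform pairs, and called genes of the other lists. Members and lists were chosen with earlier results of these data known. Figures used Python 3.11.15 and matplotlib 3.10.9. Symbols were current names for 58207 genes and GENCODE 29 names for 528. Some of the adrenergic markers chosen are not reported here, so counts over the reported ones do not describe the whole list.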

Additional observations from a re-analysis of the deposited data

How the results depend on the processing

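The number of genes past an adjusted p of 0.05 was 1089 over 6 libraries. It was 0 with the tables as recorded in GEO (191 at an unadjusted p below 0.05), 2 with the 4 libraries whose column name and recorded group match (1685 unadjusted), 512 without the filter, 679 with the same FPKM sum, 1771 with the GC and length correction, 3846 without NC replicate 3 and siPrp19 replicate 1 together, and 2 with each close pair averaged (1708 unadjusted). Leaving out each library gave 253 to 1354. Subunit genes called higher, 0 at first, were 2 with the same sum outside the mitochondrial genome, 2 with voom on recovered reads, 1 with the GC and length correction, 33 without the 2 departing libraries (NCc and siPrp19a), and 0 to 4 when each library was left out. Subunit genes called lower, 1 at first, were 0 with the tables as recorded, the 4 libraries, no filter, the same sum or averaged pairs, 2 without the 2 departing libraries, and 0 to 1 when each library was left out (1 only without siPrp19 replicate 1). The median over subunit genes moved from -0.05 to 0.16 without the 2 departing libraries and to 0.05 with quantile normalization, and downwards to -0.149 with the tables as recorded, -0.165 with the 4 libraries and -0.172 with averaged pairs, against a spread of library medians of -0.17 to 0.30. The share of calls that were higher was 32.4% and became 46.1% with quantile normalization, 58.5% with the same sum outside the mitochondrial genome, 54.5% with voom and 43.3% with the GC and length correction. The log2 fold change of SDHB turned positive with quantile normalization (0.0583), the same sum outside the mitochondrial genome (0.0592), voom (0.0269), the GC and length correction (0.00278, also with the replicate block) and without the 2 departing libraries (0.0114), and ranged from -0.107 to 0.056 when each library was left out. That of SDHC became -0.0239 and that of NDUFA7 -0.208 with the tables as recorded. Without the 2 departing libraries those of NDUFA1, UQCRHL and ATP5MF became 0.238, 0.061 and 0.151, and NDUFA1 ranged from -0.582 to 0.0808 when each library was left out. Beyond left-out or relabelled libraries the cause was not tested.

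Libraries with the same replicate number correlated in their deviations from the group means at 0.134, -0.05 and 0.204 for numbers 1, 2 and 3. Of the 6 libraries, 4 were closest to their own number. These values do not settle whether the numbers pair the samples, and the main fit used no pairing. The replicate block gave 928 genes and the same 1 subunit gene, SDHD (adjusted p = 0.0315), and with the GC and length correction 1374 genes and 2 subunit genes higher (ATP5MG and COX7A2L). With the block, TFAM had an adjusted p of 0.0637.

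Depth limits the genes below the filter, such as NDUFV2 and COX7A1, and the agreement of 2 pairs of libraries limits the number of independent replicates.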
